A study of Homo sapiens with 6 samples.

Results

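Amino acid transporter genes were examined in BCPAP cells, an established human line of papillary thyroid cancer, that carried a lentiviral hairpin. In 3 samples it targeted CSF2, which encodes GM-CSF, a growth factor of myeloid cells (shCSF2), and in 3 it was a non-targeting hairpin (shCtrl). Both groups had passed through the same transduction and 7 days of puromycin selection, and RNA was read on Affymetrix PrimeView arrays, 1 per sample. The labels call the samples of a group biological replicates. How many hairpins were used, and how many separately transduced populations the replicates came from, is not given in the sources used here, so the p-values measure the spread between these samples.

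The genes were chosen by symbol, as the members of the solute carrier families SLC1, SLC6, SLC7, SLC15, SLC36, SLC38 and SLC43, without the cystine transporter SLC7A11. This gave 60 of the 18132 genes that had a probe set of their own on the arrays, with 161 of the 49293 probe sets. Where a gene had several probe sets, the one with the highest average across the 6 arrays stood for it. The values are log2 expression summaries, and a gene with a mean under 5 was treated as dim, which held for 22 of the 60. At that threshold SLC38A5 had a mean of 4.97 and SLC7A4 of 4.84, just inside the dim range, and SLC15A2 of 5.07 and SLC6A8 of 5.14, just outside it. Most of these families carry amino acids across the plasma membrane, but the symbol pattern also takes in transporters of lysosomes (SLC15A4, SLC38A9) and of monoamines or creatine (SLC6A2, SLC6A3, SLC6A4, SLC6A8).

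Cells take up amino acids through overlapping carriers. Uniporters and sodium-driven symporters load the cell with substrates such as arginine or glutamine, and obligate exchangers then trade an internal amino acid for an external one, so that loaded glutamine can be exchanged for leucine. Light chains of the SLC7 family work as a dimer with a glycoprotein heavy chain, SLC3A2 or SLC3A1. Leucine and arginine that enter this way signal to Rag GTPases at the lysosome, which recruit the growth kinase mTORC1. Several carriers are known targets of ATF4, a transcription factor induced when amino acids are short.

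Short stretches of promoter are shown for the 5 genes that hold the core of the composite element bound by ATF4 with its C/EBP partners. The motif TGATGNAA was searched on both strands from 250 bases before to 50 bases after each annotated RefSeq start site (GRCh38.p14), where 47 of the 60 genes had such a window. The 30 bases around each match follow, 5′ to 3′ on the strand of the gene, with the matched motif in capitals.
SLC1A5, chr19:46784893-46784922, minus strand: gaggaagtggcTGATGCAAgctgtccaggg
SLC38A1, chr12:46266502-46266531, minus strand: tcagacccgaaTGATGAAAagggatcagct
SLC7A1, chr13:29595663-29595692, minus strand: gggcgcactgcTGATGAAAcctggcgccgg
SLC1A4, chr2:64989381-64989410, plus strand: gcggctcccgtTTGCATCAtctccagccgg
SLC1A3, chr5:36596357-36596386, plus strand: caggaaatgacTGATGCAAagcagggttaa
The motif was found in 5 of the 47 genes (10.6%), against 1217 of 27305 genes with a window (4.46%), where a gene with several start sites had more windows to match in. The 27305 are more than the 18132 genes with a probe set, so they include genes not measured here. The 2 shares therefore come from unlike gene sets and do not show an enrichment among transporters. Of the 5, SLC1A5, SLC38A1 and SLC7A1 were higher in shCSF2 cells, SLC1A3 was lower and SLC1A4 was not called by the probe set used. A match was thus held by 3 of 9 genes called higher, 1 of 6 called lower and 1 of 32 not called. These counts are small and have no matching shares over all genes beside them. Whether a match goes with a rise was not tested. SLC7A5 and SLC6A9, also called higher, had windows without a match. In SLC1A4 the motif lies on the opposite strand, and it belongs to 1 of 3 annotated start sites in SLC1A5 and SLC1A3 and to 1 of 2 in SLC38A1 and SLC1A4. A match describes the letters of the window and shows neither a bound site nor a cause.

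Array medians lay between 5.77 and 5.79 in both groups, and the arrays correlated with r of 0.998 within a group and 0.994 across groups over all probe sets, which are not independent of each other. The thyroid lineage genes NKX2-1 and PAX8 averaged 9.37 and 8.07 in shCSF2 cells, against 9.78 and 8.11 in shCtrl cells. The differentiation genes TG, TSHR and SLC5A5 were under 5 in both groups. Among epithelial markers KRT7, KRT8 and KRT18 were above 10, while KRT19 and CDH1 were under 5. Of 6 measured thyroid follicular genes NKX2-1 was the only one called, lower by 0.42 on the log2 scale (adjusted p = 0.000315 by limma). Of 6 epithelial markers only KRT8 was called, lower by 0.26 (adjusted p = 0.00518) with all 8 of its probe sets, and the part of either in the results was not tested. All 4 measured leukocyte markers were under 5, and 4 endothelial markers averaged between 5.52 and 6.52 in shCSF2 cells and between 5.65 and 6.59 in shCtrl cells, none of them called. A mean above 5 therefore does not by itself show that a gene is expressed. Called transporters with means in that range include SLC1A1 (6.26), SLC1A3 (6.21), SLC38A12 (6.18), SLC43A1 (6.38) and SLC38A6 (6.42). The difference between the 3′ and 5′ probe sets of GAPDH, a sign of RNA integrity, lay between -0.019 and 0.0021 in shCSF2 and between -0.049 and -0.026 in shCtrl arrays, and its part in the results was not tested. CSF2 had no probe set in the annotation used, so the level of the targeted transcript is not analysed here.

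The comparison asked which transporter genes differ between shCSF2 and shCtrl cells. By limma with Benjamini-Hochberg adjustment over all genes, 18 of the 60 (30%) passed an adjusted p of 0.05, against 32.7% of all genes tested. Of these, 9 were higher in shCSF2 cells, against a background of 16.7% called higher, and 9 were lower, against a background of 16% called lower. Among the 38 genes with a mean of at least 5, 16 were called (42.1%), against 43.4% of all such genes, with 9 higher and 7 lower, against backgrounds of 23.2% and 20.2%. Of the 22 dim genes 2 were called, both lower (9.09%), against 9.27% of all dim genes. Transporters were thus called about as often as other genes, and the values below show which of them moved and which way. In bulk RNA, a change in every cell and a change in a share of the cells cannot be told apart. The median log2 fold change was -0.05 over the 60 genes and -0.03 over all genes. A called change of at least 1.5-fold was seen in 5 transporters (8.33%), SLC7A5, SLC38A1, SLC38A6, SLC7A2 and SLC38A4, against 2.38% of all genes. That count depended on the probe set, and SLC38A4 is dim. Averaging over probe sets gave 0.51 for SLC7A5, 0.56 for SLC38A1, -0.56 for SLC7A2 and -0.41 for SLC38A4, all short of 1.5-fold. SLC38A6 has 1 probe set. By the most variable probe set SLC7A1 (0.66), SLC1A4 (0.87) and SLC6A13 (0.60) also passed 1.5-fold. In 27 of the 60 (45%) the 3 shCSF2 values did not overlap the 3 shCtrl values, against 46.7% of all genes.

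**Figure D1:**
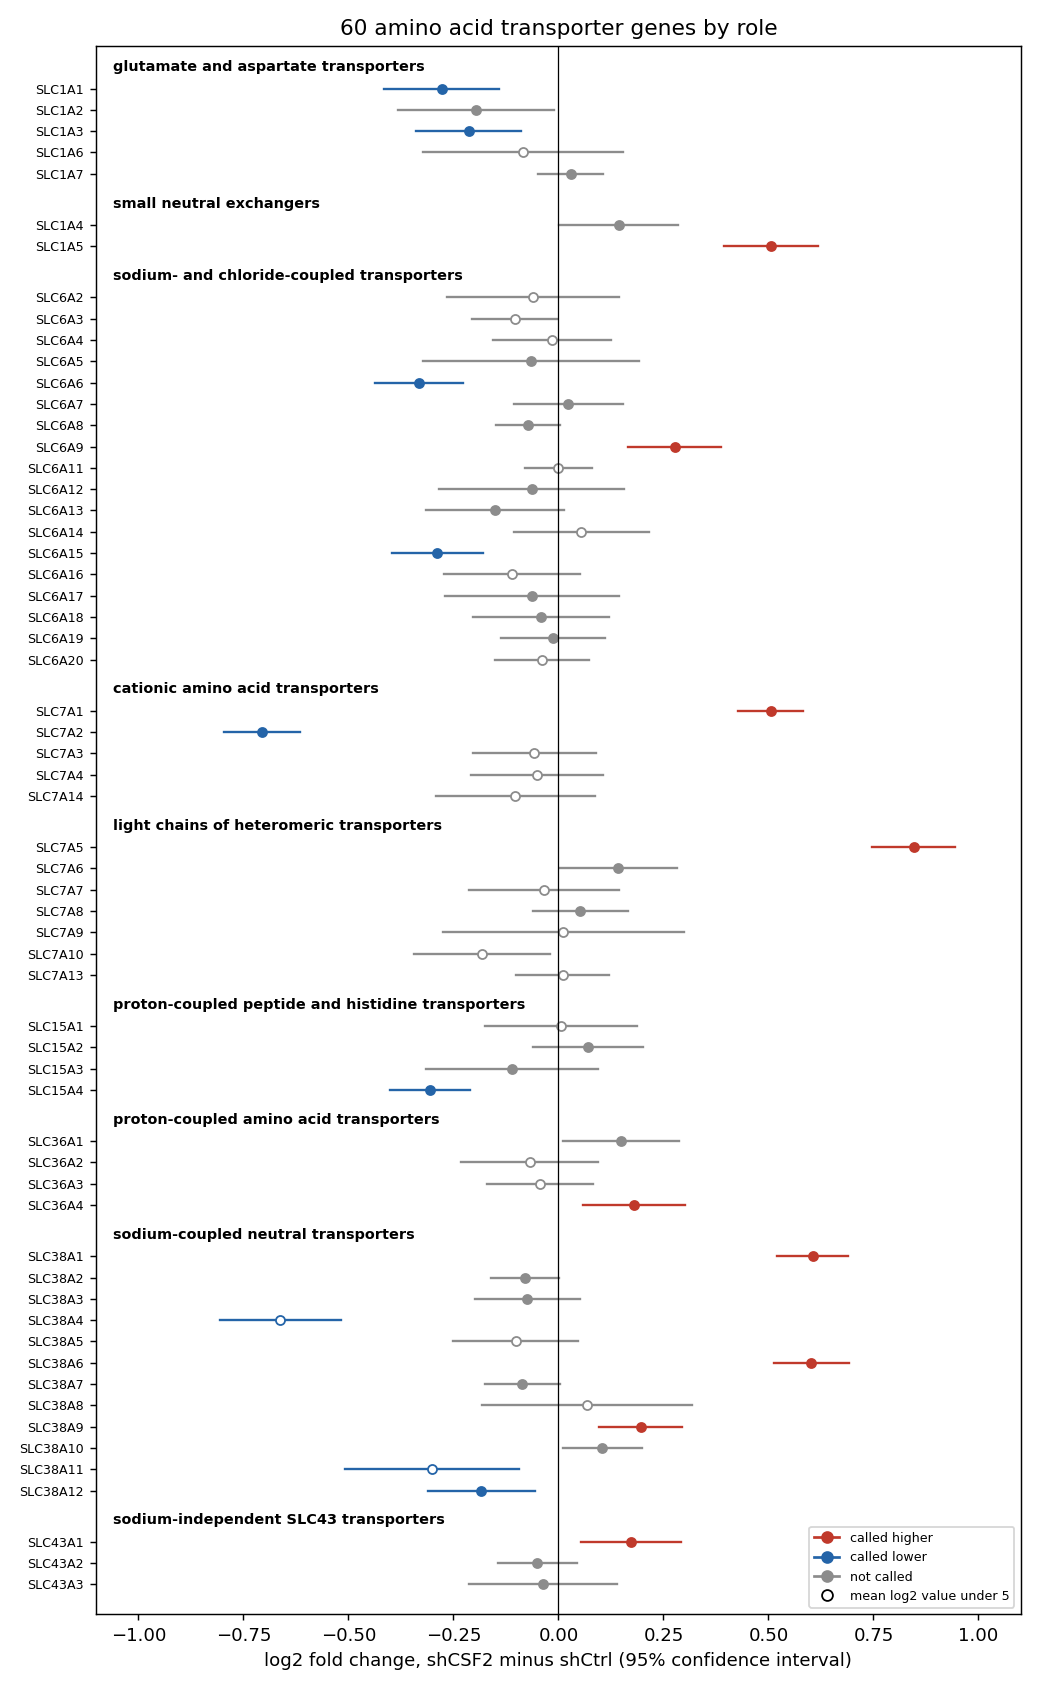
Log2 fold change (x axis, shCSF2 minus shCtrl) of the 60 transporter genes by role (rows), with the 95% confidence interval of the limma fit as a bar, red for genes called higher, blue for lower, grey for not called, and open points for genes with a mean log2 value under 5. SLC7A5 stands at 0.85 and SLC7A2 at -0.71, and most genes of the SLC6 family lie close to 0.

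By the probe sets used, the transporter gene that rose most was SLC7A5, the light chain of the main exchanger for leucine and other large neutral amino acids (Entrez gene 8140). Its log2 values were 8.13, 8.06 and 8.04 on the shCSF2 arrays, against 7.26, 7.19 and 7.25 on the shCtrl arrays. The groups were separated by 0.78, against an SD of 0.05 within shCSF2 and 0.04 within shCtrl. The rise was 1.80-fold, with a log2 fold change of 0.85 ± 0.04 (SE, adjusted p = 3.66e-05 by limma). Both of its probe sets were called higher, but by unequal amounts, 0.85 by the one used and only 0.17 by the other (adjusted p = 0.0364 by limma). With both averaged the log2 fold change was 0.51, below SLC38A6 at 0.60 and SLC38A1 at 0.56 on the same scale. By the most variable probe set of each gene SLC1A4, at 0.87, also lay above SLC7A5.

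Its heavy chain SLC3A2, which carries the light chain to the cell surface and lies outside the symbol pattern, had values of 10.66, 10.78 and 10.74 in shCSF2 and 9.67, 9.74 and 9.74 in shCtrl cells. SLC3A2 rose 2.01-fold (log2 fold change 1.01 ± 0.05), with all 7 of its probe sets called higher. It was the only called gene among 3 measured heavy chains and accessory proteins, whose median was -0.08. SLC3A1, the heavy chain of the kidney cystine carrier, and CLTRN, an accessory protein of SLC6 carriers, were under 5 in both groups and not called. The other light chains did not follow SLC7A5 past the threshold. SLC7A6, which exchanges cationic for neutral amino acids, averaged 6.26 ± 0.05 in shCSF2 and 6.12 ± 0.10 in shCtrl cells (SD, n = 3), a log2 difference of 0.14 with a 95% confidence interval of 0.0031 to 0.28 that was not called. SLC7A8, a second carrier of large neutral amino acids, averaged 5.33 ± 0.06 in shCSF2 and 5.27 ± 0.06 in shCtrl cells, a difference of 0.05 with an interval of -0.06 to 0.17. SLC7A7, SLC7A9, SLC7A10 and SLC7A13 were dim, with differences between -0.18 and 0.01.

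The carriers of arginine, lysine and ornithine moved in opposite directions. SLC7A1, the cationic transporter of most dividing cells (Entrez gene 6541), had values of 8.58, 8.55 and 8.56 in shCSF2 and 8.07, 8.03 and 8.07 in shCtrl cells. It rose 1.42-fold (log2 fold change 0.50 ± 0.03, adjusted p = 8.93e-05), with no overlap of the groups. All 4 of its probe sets were called higher, with log2 fold changes between 0.21 and 0.66.

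SLC7A2, its relative known from liver and activated macrophages (Entrez gene 6542), had values of 8.08, 8.14 and 8.13 in shCSF2 and 8.82, 8.78 and 8.86 in shCtrl cells. Every shCSF2 array was lower than every shCtrl array by at least 0.64. SLC7A2 was 1.63-fold lower in shCSF2 cells (log2 fold change -0.71 ± 0.04, adjusted p = 5.22e-05), the largest fall among the 60 genes by the probe sets used. All 4 of its probe sets were called lower, between -0.71 and -0.26. The remaining 3 genes of this group, SLC7A3, SLC7A4 and the lysosomal SLC7A14, were dim and not called, with differences between -0.10 and -0.05.

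**Figure D2:**
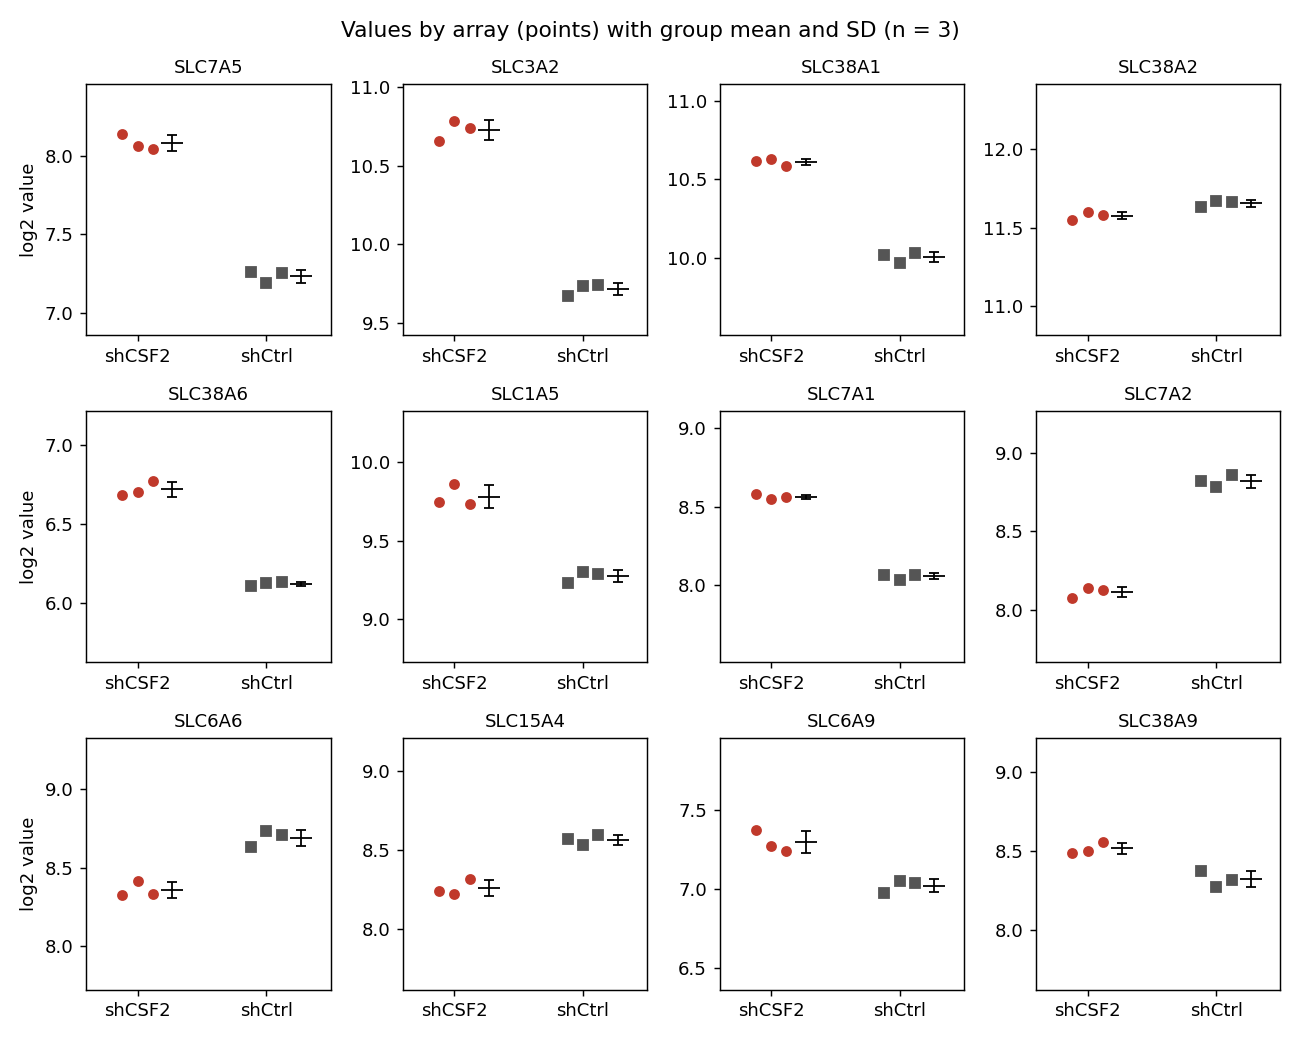
Log2 values (y axis) of 11 transporter genes and the heavy chain gene SLC3A2 on each array, with shCSF2 as red circles, shCtrl as grey squares, and the group mean with its SD (n = 3) beside them. Each panel spans 1.6 log2 units. Panels are drawn around each gene's own mean, so levels are not compared between genes. SLC7A1 is higher and SLC7A2 lower in shCSF2 cells without overlap, while SLC38A2 differs by 0.08.

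The small neutral exchangers share alanine, serine and cysteine as substrates, and SLC1A5 (Entrez gene 6510) also carries glutamine. SLC1A5 had values of 9.74, 9.86 and 9.73 in shCSF2 and 9.23, 9.30 and 9.29 in shCtrl cells. It rose 1.42-fold (log2 fold change 0.51 ± 0.05, adjusted p = 0.000337), and its 3 probe sets were all called higher and moved alike. The promoter match of SLC1A5 shown above lies upstream of 1 of its later start sites.

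SLC1A4 was less uniform. By the probe set with the highest mean its values were 6.50, 6.68 and 6.55 in shCSF2 and 6.51, 6.39 and 6.39 in shCtrl cells, which overlap by 0.01, and its difference of 0.14 ± 0.06 was not called (adjusted p = 0.114). Of its 6 probe sets, 3 were called higher and none lower. By the most variable of them SLC1A4 averaged 5.72 in shCSF2 and 4.85 in shCtrl cells, a log2 fold change of 0.87, and with all 6 averaged it was 0.39 and called.

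The glutamate and aspartate transporters are sodium-driven carriers best known for clearing glutamate from synapses. Of 5 genes, 2 fell, 0 rose and 3 were not called, with a median of -0.20. SLC1A1 had values of 6.18, 6.02 and 6.17 in shCSF2 and 6.34, 6.40 and 6.47 in shCtrl cells and fell by 0.28 ± 0.06 on the log2 scale (adjusted p = 0.0100), or by 0.16 with both of its probe sets averaged. SLC1A3 had values of 6.07, 6.18 and 6.07 in shCSF2 and 6.25, 6.32 and 6.40 in shCtrl cells and fell by 0.21 ± 0.05 (adjusted p = 0.0193). The groups did not overlap for either gene, but the gap was only 0.07 for SLC1A3. That call was lost without shCSF2 replicate 1 or 3 or shCtrl replicate 2 or 3, with values of -0.22 to -0.18, and also with its 5 probe sets averaged (-0.09). SLC1A2, at 5.06 ± 0.14 in shCSF2 and 5.25 ± 0.08 in shCtrl cells, was not called (adjusted p = 0.101), nor were SLC1A7 and the dim SLC1A6.

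Among the 12 sodium-coupled neutral transporters of the SLC38 family, 3 rose and 3 fell. SLC38A1, which accumulates glutamine in growing cells (Entrez gene 81539), had values of 10.62, 10.63 and 10.59 in shCSF2 and 10.02, 9.97 and 10.03 in shCtrl cells. It rose 1.52-fold (log2 fold change 0.61 ± 0.04, adjusted p = 6.53e-05), and all 5 of its probe sets were called higher, with log2 fold changes between 0.43 and 0.61.

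SLC38A2, the close relative of SLC38A1 that is classically induced when amino acids are withdrawn, did not rise with it. Its values were 11.55, 11.60 and 11.58 in shCSF2 and 11.63, 11.67 and 11.66 in shCtrl cells. The shCSF2 values were all the lower ones, by a log2 difference of -0.08 ± 0.03 that was not called (adjusted p = 0.119), with a 95% confidence interval of -0.16 to 0.00047. The other two probe sets of SLC38A2 were called lower (-0.18 and -0.17), and so was the average of its 3 probe sets (-0.14, adjusted p = 0.00912).

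SLC38A6, a less well described member of the family (Entrez gene 145389), had values of 6.68, 6.71 and 6.77 in shCSF2 and 6.10, 6.12 and 6.13 in shCtrl cells. It rose 1.52-fold (log2 fold change 0.60 ± 0.04), measured by 1 probe set. SLC38A9, the lysosomal carrier that reports arginine to mTORC1, had values of 8.49, 8.50 and 8.56 in shCSF2 and 8.37, 8.27 and 8.32 in shCtrl cells. Its rise of 0.20 ± 0.04 was small, but all 3 of its probe sets were called higher.

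SLC38A4, a carrier of small neutral amino acids known from liver and placenta, fell by 0.66 ± 0.06 on the log2 scale (adjusted p = 0.000314). It was dim in both groups, with values of 3.71, 3.78 and 3.61 in shCSF2 and 4.27, 4.44 and 4.37 in shCtrl cells, and the fall was 0.41 with its 3 probe sets averaged. SLC38A12 averaged 6.09 ± 0.04 in shCSF2 and 6.27 ± 0.09 in shCtrl cells and fell by 0.18 ± 0.05, and SLC38A11, also dim, averaged 4.31 ± 0.16 in shCSF2 and 4.61 ± 0.09 in shCtrl cells and fell by 0.30 ± 0.09. All 3 probe sets of SLC38A12 were called lower, and it was also called with them averaged (-0.19, adjusted p = 0.00462), while SLC38A11 had 1 probe set. Both calls depended on single arrays, though not the direction: with each array left out in turn SLC38A12 was called only without shCtrl replicate 3 (values from -0.21 to -0.13 in the fits that lost the call), and SLC38A11 only without shCSF2 replicate 1 (-0.34 to -0.21). The call of SLC38A11 was also lost with quantile normalisation again and with cyclic loess (-0.27 in both). The other 6 genes, SLC38A2 among them, were not called, with differences between -0.10 and 0.10.

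**Figure D3:**
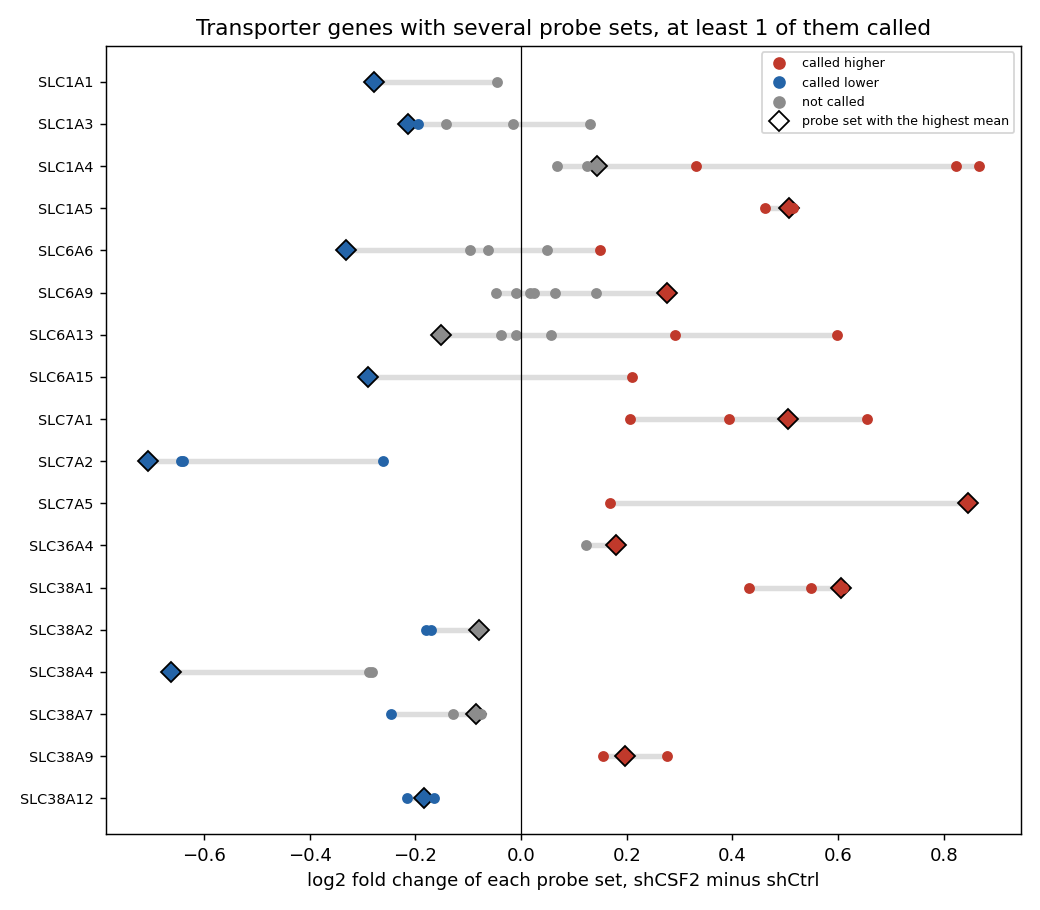
Log2 fold change of each probe set (x axis, shCSF2 minus shCtrl) for the 18 transporter genes (rows) that have several probe sets and at least 1 called, with diamonds for the probe set of highest mean, red for called higher, blue for called lower and grey for not called. SLC38A1, SLC7A1 and SLC1A5 have all probe sets higher and SLC7A2 all lower, while SLC6A6 and SLC6A15 have called probe sets on both sides of 0.

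The SLC6 family, sodium- and chloride-coupled carriers of amino acids, neurotransmitters and osmolytes, gave 1 gene higher and 2 lower of 18, with a median of -0.06. The glycine transporter SLC6A9 had values of 7.37, 7.28 and 7.24 in shCSF2 and 6.97, 7.05 and 7.04 in shCtrl cells, and rose by 0.28 ± 0.05 on the log2 scale (adjusted p = 0.00418). Only 1 of its 7 probe sets was called, and with all 7 averaged the difference was 0.07 and not called. The taurine transporter SLC6A6, which also serves cell volume control, had values of 8.33, 8.42 and 8.33 in shCSF2 and 8.63, 8.73 and 8.71 in shCtrl cells. It fell by 0.33 ± 0.04 by this probe set (adjusted p = 0.00143).

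SLC6A15, a carrier of branched-chain amino acids and proline known mainly from brain, had values of 6.50, 6.50 and 6.57 in shCSF2 and 6.89, 6.77 and 6.78 in shCtrl cells and fell by 0.29 ± 0.05. For both SLC6A6 and SLC6A15 another probe set was called in the opposite direction, at 0.15 and 0.21, and neither gene was called with its probe sets averaged (-0.06 and -0.04), so their direction is uncertain. SLC6A13, a transporter of GABA and taurine, was not called (-0.15 ± 0.07), although 2 of its 6 probe sets were called higher, both dim, the larger at 2.99 in shCSF2 and 2.40 in shCtrl cells. The direction of SLC6A13 turned with the probe set, to 0.60 by the most variable and 0.12 with all averaged. The 15 SLC6 genes that were not called had differences between -0.15 and 0.05, among them the creatine transporter SLC6A8 (-0.07 ± 0.03) and 7 dim genes that include the transporters of noradrenaline (SLC6A2), dopamine (SLC6A3) and serotonin (SLC6A4).

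Of the 8 proton-coupled carriers 1 rose and 1 fell. Of 4 SLC15 genes, SLC15A4, which moves histidine and peptides out of endosomes and lysosomes, had values of 8.24, 8.22 and 8.31 in shCSF2 and 8.57, 8.53 and 8.59 in shCtrl cells. It fell by 0.31 ± 0.04 on the log2 scale (adjusted p = 0.00135), measured by 1 probe set, with no overlap of the groups. SLC15A1, SLC15A2 and SLC15A3 were not called, with differences between -0.11 and 0.07. Of 4 SLC36 genes, SLC36A4, a transporter of proline and tryptophan, averaged 7.32 ± 0.07 in shCSF2 and 7.15 ± 0.06 in shCtrl cells and rose by 0.18 ± 0.05 (adjusted p = 0.0349). That call was lost without shCSF2 replicate 1 or 3 or shCtrl replicate 1 or 2 (values of 0.14 to 0.19). It was also lost with both probe sets of SLC36A4 averaged (0.15) and in the fit by most variable probe sets (0.18). Quantile normalisation again lost it too (0.15). Of its 2 probe sets, 1 was called higher. SLC36A1, which exports amino acids from lysosomes, averaged 6.38 ± 0.09 in shCSF2 and 6.24 ± 0.07 in shCtrl cells and was not called (0.15, adjusted p = 0.0965).

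Among the sodium-independent SLC43 carriers, SLC43A1, a facilitator of branched-chain amino acid transport, averaged 6.46 ± 0.03 in shCSF2 and 6.29 ± 0.09 in shCtrl cells. It rose by 0.17 ± 0.05 (adjusted p = 0.0372), a call that held only without shCtrl replicate 3 when each array was left out in turn (values of 0.14 to 0.19 in the fits that lost it). SLC43A2, another carrier of branched-chain amino acids, and SLC43A3, which transports purine nucleobases, were not called (-0.05 and -0.04).

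**Figure D4:**
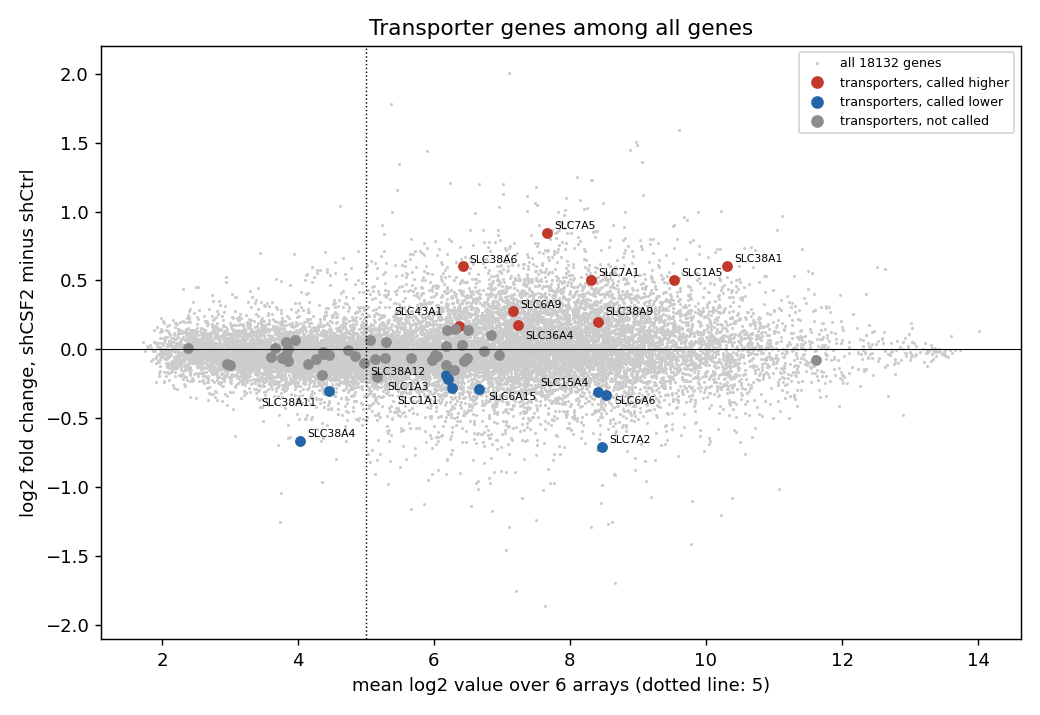
Log2 fold change (y axis, shCSF2 minus shCtrl) against the mean log2 value over the 6 arrays (x axis) for all 18132 genes (small grey points) and the 60 transporters (large points, red called higher, blue called lower, grey not called), with a dotted line at the dim threshold of 5. All 9 transporters called higher lie to the right of that line, and 2 of the 9 called lower, SLC38A4 and SLC38A11, lie to its left.

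Several transporters had been catalogued as ATF4 targets, and these were counted apart, although ATF4-induced genes were already known to be higher in these samples when the list was made, so the count is not independent evidence. Of 7 such genes, SLC7A5, SLC1A5, SLC7A1 and SLC6A9 rose (57.1%) and 0 fell, with a median of 0.28. Over all genes, 16.7% were called higher. Of the 6 listed genes with a mean of at least 5, 4 rose (66.7%), against 23.2% of all such genes. SLC6A9 was called by 1 of its 7 probe sets, and not with all 7 averaged (0.07). SLC38A2 and the dim SLC7A3 lay at -0.08 and -0.06 and were not called, nor was SLC1A4 by the probe set used. SLC38A1 and SLC38A6, which also rose, are not on this list.

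Of 8 amino acid carriers outside the 7 families, 1 was called (12.5%), against 32.7% of all genes, and the median was 0.05. It was the vesicular glutamate transporter SLC17A6, called higher but itself dim (2.86 ± 0.08 in shCSF2 and 2.64 ± 0.07 in shCtrl cells). That call was lost without shCSF2 replicate 1 or 2 or shCtrl replicate 2 or 3 (0.18 to 0.21), and with both of its probe sets averaged (0.10). Among 14 measured enzymes that use the transported amino acids, 2 rose and 2 fell (28.6% called), with a median of 0.05. Among the 13 of them with a mean of at least 5, 4 were called (30.8%), against 43.4% of all such genes. ASNS, which makes asparagine from glutamine and aspartate, rose by 0.75 ± 0.04, with values of 10.31, 10.23 and 10.27 in shCSF2 and 9.58, 9.52 and 9.46 in shCtrl cells. BCAT1, the cytosolic branched-chain aminotransferase, rose by 0.55 ± 0.03, at 9.92 ± 0.02 in shCSF2 and 9.37 ± 0.02 in shCtrl cells. Its mitochondrial counterpart BCAT2 fell by 0.30 ± 0.05, at 8.27 ± 0.03 in shCSF2 and 8.58 ± 0.08 in shCtrl cells. ASS1, which starts arginine synthesis from citrulline, fell by 0.14 ± 0.04, a call that held only without shCtrl replicate 1 when each array was left out in turn (-0.15 to -0.12 in the fits that lost it).

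Of 22 measured genes through which mTORC1 senses amino acids, 6 rose and 3 fell, with a median of -0.02. Among the 21 of them with a mean of at least 5, 9 were called (42.9%), against 43.4% of all such genes. SEH1L, a subunit of the GATOR2 complex and of the nuclear pore, rose by 0.83 ± 0.04, at 7.85 ± 0.02 in shCSF2 and 7.02 ± 0.06 in shCtrl cells. Another GATOR2 subunit gene, MIOS, rose by 0.35 ± 0.05, and FNIP2, a partner of folliculin, by 0.39 ± 0.06. LAMTOR4, a subunit of the Ragulator complex that anchors the Rag GTPases to lysosomes, fell by 0.51 ± 0.05, at 8.65 ± 0.09 in shCSF2 and 9.16 ± 0.02 in shCtrl cells.

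Of the 45 transporters read by several probe sets, 7 had all of them called in 1 direction, 9 had some called in 1 direction, 2 had calls in both and 27 had none. Over all 60 transporters, 46 of 161 probe sets were called (28.6%), against 29.1% of all probe sets. Of the 18 called transporters, 10 kept their call and direction under every alternative in which they were tested, namely SLC7A5, SLC7A1, SLC1A5, SLC38A1, SLC38A6 and SLC38A9, which rose, and SLC7A2, SLC1A1, SLC15A4 and SLC38A4, which fell. SLC38A6 and SLC15A4 have 1 probe set each, so the choice of probe set could not change their values. For SLC7A5, SLC7A2, SLC1A1 and SLC38A4 the most variable probe set was the one already used. Only 1 of 2 probe sets of SLC1A1 and 1 of 3 of SLC38A4 were called.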

How the data were processed

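Total RNA of 6 BCPAP samples was labelled from 200 ng and hybridised to Affymetrix PrimeView arrays, per the labels' protocols. The authors deposited log2 summaries, 1 per probe set and array. RMA, oligo and limma are named in the submitters' processing notes, with no version or role. Of 49395 probe sets, 102 were controls, 44988 were paired with 1 symbol, 1832 with several and 2473 with none in the platform annotation. Symbols were checked by gene identifier against RefSeq (GRCh38.p14), and 0 changed. Groups were taken from sample titles. Differences (shCSF2 minus shCtrl) were fitted in limma 3.58.1 (lmFit, eBayes, R 4.3.3), unfiltered, with Benjamini-Hochberg adjustment over 18132 genes, and separately over 49293 probe sets, at 0.05. The fit was tested on simulated data. RMA compresses differences at low values, related transcripts can share probes, and the number of arrays limits the precision. Promoter windows are RefSeq's. The members and lists were chosen with earlier results of these data known. Named genes are transporters past the threshold, 5 fixed carriers, the 3 with the highest mean in a role, and the 4 passing genes of a companion list with the largest change. SLC38A12, absent from the role lists, was placed with the SLC38 family afterwards. Figures were drawn with matplotlib 3.10.9.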

Additional observations from a re-analysis of the deposited data

How the results depend on the processing

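Over 901 refits of single transporters, 844 kept their side of the threshold, 35 lost a call, 20 gained one and 2 turned direction with a call in the refit. Of the 844, 57 changed sign without a call in either fit, in 23 genes, with values of -0.16 to 0.11. Both called reversals were SLC6A13, at 0.60 by its most variable probe set and 0.12 with all probe sets averaged, against -0.15. The counts of transporters called stayed within 1.5 times the reported 9 higher and 9 lower under every alternative, with 7 to 9 higher and 6 to 8 lower when an array was left out. Only the median log2 fold change moved by more than the spread between arrays, from -0.05 to 0.10 with only genes at or above the median mean tested, which kept 23 of the 60. Among the other settings, median centring and array weights changed no call. Quantile normalisation again lost the calls of SLC36A4 (0.15) and SLC38A11 (-0.27) and gained one for SLC38A2 (-0.10). Cyclic loess lost the call of SLC38A11 (-0.27), and a variance trend gained one for SLC38A2 (-0.08). The replicate numbers did not pair the arrays, since deviations of same-numbered arrays correlated at 0.025 to 0.053 and not every array correlated best with its own number. With the replicate number as a block, 8 transporters were higher and 8 lower, and the calls of SLC38A12 and SLC43A1 were lost. Log2 values near the low end cannot resolve small changes, so the calls missing among dim genes do not show that they did not differ.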
